A study of Saccharomyces cerevisiae with 12 samples.

Results

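Reduced yeast cells harvested at 72 hr were compared with reduced cells harvested at 48 hr. The cells were BY4741, a haploid laboratory strain of Saccharomyces cerevisiae, carrying Grx1-roGFP2, a GFP-based probe whose fluorescence reports how oxidized cytosolic glutathione is, and were grown in casein amino acid medium with 2% glucose at 30°C. Live cells were sorted into a reduced and an oxidized subpopulation at each age. The members are the 6 reduced libraries of the 12 in the series, 3 labelled biological replicates at each age, and the genes described are the 4776 of 6645 genes in the table whose mean over the 12 libraries reached 20 PPM. PPM (parts of a library of 1e6 reads) is the number of deduplicated 3′ reads of a gene scaled by the total of its library. The sort defines the reduced state, so the cells of the 48 hr and 72 hr groups are those that fell in the reduced gate at that age and not 1 cohort followed over time.

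When glucose in the medium runs out, yeast turns to ethanol and acetate, and later enters stationary phase. Growth on C2 compounds needs the glyoxylate cycle and gluconeogenesis, which build sugars from acetyl units, and the carnitine shuttle, which carries acetyl units between compartments. Molecular chaperones fold and refold proteins, and in yeast many of their genes are switched on by the heat shock factor Hsf1 and by the general stress factors Msn2 and Msn4.

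The main pattern was a fall of chaperone transcripts and a rise of transcripts for C2 carbon use. In reduced cells 111 of 4776 transcripts changed between 48 and 72 hr (limma with Benjamini-Hochberg adjustment, threshold 0.05), which is 2.32%. Of these, 84 were lower at 72 hr (1.76%) and 27 higher (0.565%). Among the lower transcripts 41 fell by at least 2-fold on the log2(PPM + 10) scale, the scale of all log2 differences here, and among the higher ones 9 rose by at least 2-fold. The differences ran from 0.52 to 1.95 for the higher and from -0.59 to -2.57 for the lower transcripts. The 3 libraries of one age lay entirely on one side of the 3 of the other for 108 of the 111, against 17.9% of all genes tested. The 111 were called on these same libraries, which favours such separation, so it is a description and not further support. The same holds for each called gene below. The transcripts that fell held 137970 to 142640 PPM in sum at 48 hr and 62902 to 74885 PPM at 72 hr. The transcripts that rose held 35711 to 39692 PPM in sum at 48 hr and 51424 to 64197 PPM at 72 hr. CPR1 and YDR154C, which rose, HXK1 and YFR052C-A, which fell, and the CUP1 copies had nearly equal values in every reduced library (each ratio within 0.8 to 1.25, the tolerance used). In the pairs other than CUP1 some reads may be counted in both transcripts. The counting windows of the CUP1 copies do not overlap, so their reads may instead have been divided between them. With 1 of each pair, CUP1 included, a step chosen after the values were seen, the sums were 112542 to 118967 and then 52506 to 61073 PPM for those that fell. For those that rose they were 31432 to 35701 and then 44775 to 57998 PPM. The sums for those that fell are too low if the CUP1 reads were divided. The median log2 difference of all genes tested was 0.10, and 59.8% of them were above 0.

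The split depended on the scaling. With median-of-ratios size factors 126 transcripts changed, 15 higher and 111 lower, and the median of all genes was 0.02. The count also depended on single libraries: it was 72 without 48 hr replicate 2, 61 without 48 hr replicate 3, 68 without 72 hr replicate 1 and 80 without 72 hr replicate 2. With eBayes without a trend 18 of the 111 remained, 2 higher and 16 lower. With any reduced library left out in turn, 44 of the 84 lower and 5 of the 27 higher transcripts kept their calls.

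**Figure D1:**
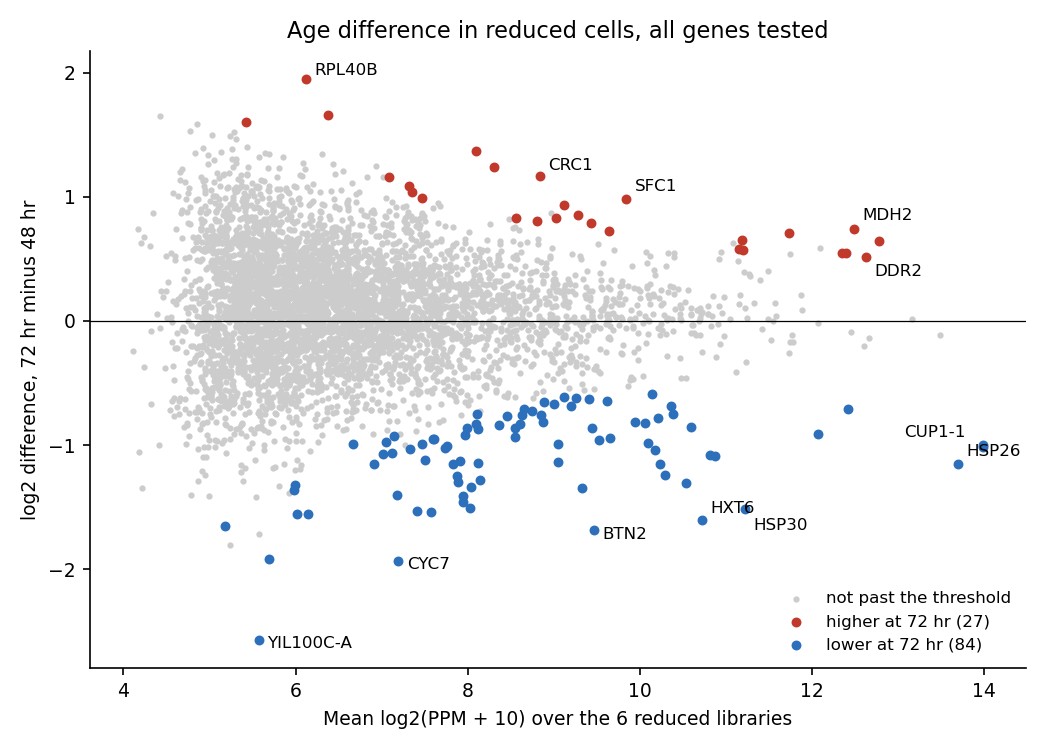
Each point is 1 of the 4776 genes, with its mean log2(PPM + 10) over the 6 reduced libraries on the x axis and its log2 difference between 72 and 48 hr on the y axis. Blue points are the 84 transcripts that fell and red points the 27 that rose, and the most abundant changed transcripts, the copies CUP1-1 and CUP1-2 and then HSP26, are among those that fell.

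The reduced libraries held 119178 to 241084 reads at 48 hr and 141471 to 201379 reads at 72 hr, so that 1 read was worth 4.1 to 8.4 PPM, and low values carry a large counting error. The Pearson r of log2(PPM + 10) was 0.883 to 0.911 within an age and 0.860 to 0.909 across the ages. Methods text gives the strain as MATα, but the 7 MATa-specific transcripts summed to 1207 to 1561 PPM in the reduced libraries and the 4 MATα-specific ones to 35.3 to 94.3 PPM, so these transcripts go against the stated mating type. Of the genes mutated in the stated genotype, MET17 was at 0 in every reduced library, and LEU2 was at 0 in those of 48 hr and at 0 to 21.2 PPM in those of 72 hr. URA3, at 1455 to 1933 PPM, and HIS3, at 158 to 265 PPM, were present, and the source of their reads was not tested. Transcripts of newborn daughter cells summed to 1012 to 1284 PPM at 48 hr and 785 to 1138 PPM at 72 hr. Those of dividing cells summed to 3061 to 3281 PPM and 3351 to 3882 PPM. Of these, 0 of 10 and 0 of 9 tested passed the threshold, against 2.32% of all genes tested. Sets this small can hold 0 calls at that share, so this does not show that they were unchanged. At 72 hr 8 of the 10 daughter transcripts and 2 of the 9 dividing ones were lower.

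Promoter sequences of the leading genes are shown because a known regulatory motif stood before many of the chaperone genes and another before many of the genes for C2 carbon use. These motifs were picked from a longer set that was searched. The heat shock element was searched as 3 alternating units, TTCNNGAANNTTC, and the core of the carbon source response element, the site of gluconeogenic activators, as CCNNNNNNCCG, on both strands of the 500 bases before each gene in the R64 (sacCer3) genome of RefSeq. The following excerpts, with their position, strand and 30 bases on each side of the matches where the window allows, are of BTN2 and FES1, the chaperone transcripts with the largest fall, and of CRC1, YAT2, SFC1 and MDH2, the leading transcripts of the carnitine shuttle and of the glyoxylate cycle and gluconeogenesis. Capitals mark the match.

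BTN2, heat shock element, chrVII:772080-772157, plus strand: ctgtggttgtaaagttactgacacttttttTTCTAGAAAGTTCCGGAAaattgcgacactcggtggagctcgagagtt
FES1, heat shock element, chrII:444822-444894, minus strand: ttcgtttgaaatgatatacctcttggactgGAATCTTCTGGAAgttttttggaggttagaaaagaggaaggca
CRC1, carbon source element, chrXV:514496-514624, minus strand: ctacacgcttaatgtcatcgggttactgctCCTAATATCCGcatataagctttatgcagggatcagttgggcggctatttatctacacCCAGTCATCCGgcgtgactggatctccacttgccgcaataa
YAT2, carbon source element, chrV:201993-202063, plus strand: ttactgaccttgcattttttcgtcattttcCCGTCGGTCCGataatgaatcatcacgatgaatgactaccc
SFC1, carbon source element, chrX:609273-609322, plus strand: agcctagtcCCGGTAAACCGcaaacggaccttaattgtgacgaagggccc
MDH2, carbon source element, chrXV:83257-83401, minus strand: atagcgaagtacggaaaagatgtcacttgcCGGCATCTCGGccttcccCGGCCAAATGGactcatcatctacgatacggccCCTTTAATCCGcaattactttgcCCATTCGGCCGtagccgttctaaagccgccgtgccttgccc

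The capitals of BTN2 hold 2 overlapping matches, so that 4 units follow each other. HSP30 and YRO2, the leading members of the other list with a large share of calls, held neither motif in their window. The heat shock element stood before 72 of 4672 tested genes with a matched name (1.54%), before 14 of 35 chaperone genes (40%) and before 13 of 78 transcripts that fell (16.7%). Within the chaperone list it stood before 10 of the 17 genes whose transcripts fell and before 4 of the 18 others. Those 10 are among the 13, so these shares are not separate observations. The windows of SIS1 and LST8, both among the 13, cover nearly the same bases, so the same element may be counted for both. The carbon source element stood before 990 of 4672 genes (21.2%), before 10 of 13 genes of the glyoxylate cycle and gluconeogenesis, before 5 of 5 of the carnitine shuttle and before 13 of 26 transcripts that rose (50%). It also stood before 22 of 78 transcripts that fell (28.2%), and over all 990 tested genes with it the median log2 difference was 0.12, against 0.10 over all genes. The only transcript that rose with a heat shock element was YAT2. Other motifs that were searched also differed in their shares. The stress response element, CCCCT, stood before 48.7% of transcripts that fell and 38.5% of those that rose, against 35.9% of all. It stood before 34.3% of the chaperone list, 61.5% of the glyoxylate list and 60% of the carnitine list. Among the chaperones it stood before 47.1% of those that fell and 22.2% of the others. The motif listed as GATA site stood before 42.3% of those that rose, against 23%. Some were rarer, such as the RRPE core before 24.4% of those that fell, against 35.2%. A match is a run of letters and was not tested as a binding site, and over all 72 tested genes with the heat shock element the median log2 difference was -0.04.

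Chaperone and heat shock transcripts fell in reduced cells between 48 and 72 hr. Of 35 listed transcripts 17 passed the threshold, all lower at 72 hr, against 1.76% lower among all genes tested, and 6 of the 35 had a positive difference. The median log2 difference of the list was -0.61, against 0.10 over all genes, and it lay between -0.70 and -0.51 in every alternative. The members summed to 43197 to 46481 PPM at 48 hr and 24019 to 25906 PPM at 72 hr, of which HSP26 was the largest part.

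BTN2, which gathers misfolded proteins into inclusions, had 1614, 1057 and 1181 PPM in the 3 libraries at 48 hr and 487, 368 and 321 PPM at 72 hr. The ages did not overlap, and the log2 difference was -1.68 ± 0.17 (SE, n = 3; adjusted p = 2.2e-10). FES1, a nucleotide exchange factor of the Hsp70 chaperones, had 991, 1099 and 970 PPM and then 452, 403 and 338 PPM. It fell by 1.35 ± 0.17 (SE, n = 3; adjusted p = 3.5e-08), again without overlap. HSP26, a small heat shock protein that binds unfolded proteins, was among the most abundant transcripts, with 18649, 19358 and 21605 PPM at 48 hr and 8869, 9974 and 8002 PPM at 72 hr. The lowest library at 48 hr was far above the highest at 72 hr, and the log2 difference was -1.15 ± 0.12 (SE, n = 3; adjusted p = 1.4e-10).

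HSP42, the other main small heat shock protein of the cytosol, had 1891, 1712 and 1782 PPM and then 745, 884 and 783 PPM. It fell by 1.15 ± 0.15 (SE, n = 3; adjusted p = 1.1e-07). SSE2, an Hsp110 exchange factor, went from 357, 470 and 399 PPM to 184, 170 and 180 PPM, and the J-domain protein gene APJ1 from 344, 302 and 399 PPM to 174, 141 and 147 PPM. Neither gene's libraries overlapped between the ages, with log2 differences of -1.15 ± 0.21 and -1.12 ± 0.24 (SE, n = 3; adjusted p = 1.8e-04 and 0.0015). HSP78, the mitochondrial disaggregase, had 552, 461 and 511 PPM and then 238, 290 and 372 PPM, a difference of -0.76 ± 0.20 (SE, n = 3; adjusted p = 0.024).

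The transcripts of the list that fell beyond these were chosen after their values were seen. They were the Hsp90 gene HSP82 (-1.08), its co-chaperones AHA1 (-1.01), CPR6 (-0.94) and STI1 (-0.81), the Hsp70 genes SSA3 (-0.82) and SSA4 (-0.72), the disaggregase HSP104 (-0.75), the mitochondrial co-chaperonin HSP10 (-0.78), the J-domain protein SIS1 (-0.69) and the exchange factor SSE1 (-0.61). Other members did not pass the threshold, among them HSC82, the constitutive Hsp90, with 444 to 487 PPM at 48 hr and 348 to 524 PPM at 72 hr, and SSA1, a constitutive Hsp70, 1290 to 1326 PPM and 1202 to 1237 PPM, each with a log2 difference of -0.10 (adjusted p = 0.91 and 0.86). With 1 library left out the list kept at least 13 calls, the fewest without 48 hr replicate 3, and with eBayes without a trend it kept 5, those of BTN2, FES1, HSP26, HSP42 and HSP82. HSP78 was lost without 48 hr replicate 1 or 3 or 72 hr replicate 1 or 2 (adjusted p = 0.11, 0.1, 0.24 and 0.083). AHA1 was lost without 48 hr replicate 2 or 72 hr replicate 2 (0.054 and 0.051), STI1 without 72 hr replicate 1 (0.057), SSA4 without 48 hr replicate 1 or 3 or 72 hr replicate 1 or 3 (0.05, 0.28, 0.084 and 0.15) and SIS1 without 48 hr replicate 2 or 3 or 72 hr replicate 2 (0.093, 0.19 and 0.38). SSE1 was lost without any 48 hr replicate (0.22, 0.12 and 0.068), without 72 hr replicate 1 or 2 (0.24 and 0.16) and without oxidized 72 hr replicate 2 or 3 (0.056 and 0.061).

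**Figure D2:**
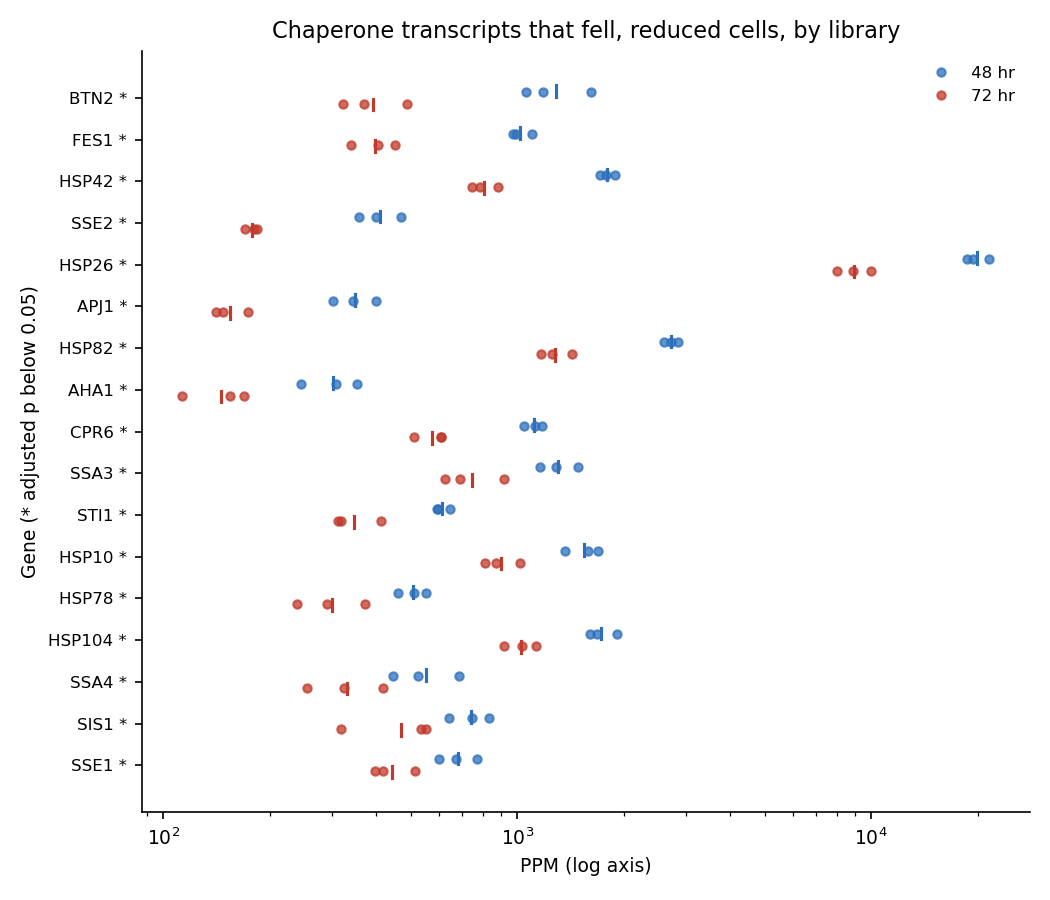
PPM on a log axis of the 17 chaperone transcripts that fell, with a point for each of the 3 libraries at 48 hr (blue) and 72 hr (red) and a tick at each mean. For each of the 17 transcripts the 3 libraries at 72 hr sit below the 3 at 48 hr, the change from 19871 to 8948 PPM on average for HSP26 being the largest in PPM.

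A set of transcripts picked as higher in the oxidized subpopulation, with earlier results of these data known, was also lower at 72 hr. They are SUC2, CYC7, PDC5, HSP30, YRO2, TSA2 and MDH1, and their direction is not independent of these data. Their sum was 5820 to 6603 PPM in the reduced libraries at 48 hr and 2155 to 2846 PPM at 72 hr, and 11532 to 14494 PPM and 7388 to 8400 PPM in the oxidized libraries. All 7 were lower at 72 hr in reduced cells, where 59.8% of all genes tested had a positive difference. Of the 7, 5 passed the threshold, against 1.76% lower among all genes tested. Because the set was picked from these libraries, these counts are a description only. Their part in the fall of the chaperone transcripts was not tested.

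HSP30, a membrane protein that is induced by stress and restrains the proton pump Pma1, made up most of that sum. It had 3928, 3960 and 4226 PPM at 48 hr and 1147, 1513 and 1612 PPM at 72 hr, and a log2 difference of -1.51 ± 0.14 (SE, n = 3; adjusted p = 4.0e-12). Its relative YRO2 had 593, 738 and 925 PPM and then 387, 290 and 440 PPM, a difference of -0.99 ± 0.18 (SE, n = 3; adjusted p = 2.4e-04). The libraries of the ages did not overlap for either gene. They were the 2 members of 4 in the list of the proton pump and its opsin-like relatives that passed the threshold, against 1.76% lower among all genes tested. TSA2, a cytosolic peroxiredoxin, had 95.4, 101 and 158 PPM and then 49.7, 106 and 113 PPM, with a difference of -0.40 that did not pass (adjusted p = 0.65). Of 29 thiol redox and antioxidant transcripts tested 0 passed with limma, against 2.32% of all genes, and 3 had an unadjusted p under 0.05, against 12%. The largest positive difference was that of GPX1 (0.75, limma's adjusted p = 0.61).

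Transcripts for the use of C2 compounds rose between 48 and 72 hr. Of 13 transcripts of the glyoxylate cycle and gluconeogenesis 5 rose and 0 fell, against 0.565% higher among all genes tested, and all 13 differences were positive, with a median of 0.58. Of 5 carnitine shuttle transcripts 3 rose, and all 5 differences were positive, with a median of 0.72. The medians lay between 0.49 and 0.76 and between 0.63 and 0.92 in every alternative.

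CRC1, the mitochondrial carrier for acetylcarnitine, had 311, 294 and 286 PPM at 48 hr and 690, 785 and 580 PPM at 72 hr. The lowest library at 72 hr was above the highest at 48 hr, and the log2 difference was 1.17 ± 0.23 (SE, n = 3; adjusted p = 5.7e-04). YAT2, a carnitine acetyltransferase, rose from 444, 394 and 534 PPM to 894, 975 and 654 PPM (0.86 ± 0.21, SE, n = 3; adjusted p = 0.0093). CAT2, the main mitochondrial and peroxisomal enzyme of that kind, rose from 651, 604 and 579 PPM to 1053, 1279 and 778 PPM (0.72 ± 0.20, SE, n = 3; adjusted p = 0.035). In these genes 72 hr replicate 3 was the lowest of its group. SFC1, the mitochondrial succinate-fumarate carrier, had 680, 621 and 632 PPM and then 1465, 1682 and 851 PPM, a difference of 0.98 ± 0.20 (SE, n = 3; adjusted p = 0.0012). MDH2, the cytosolic malate dehydrogenase, had 5529, 3935 and 4038 PPM and then 8064, 8546 and 6024 PPM, a difference of 0.75 ± 0.15 (SE, n = 3; adjusted p = 8.3e-04). The ages did not overlap for either gene.

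ICL1, isocitrate lyase, had 3128, 2660 and 2256 PPM and then 5279, 4644 and 3364 PPM, a difference of 0.71 (adjusted p = 0.0045). MLS1, malate synthase, had 1987, 1947 and 1662 PPM and then 3173, 3138 and 2530 PPM, a difference of 0.65 (adjusted p = 0.019). CIT2, the peroxisomal citrate synthase, had 2115, 1754 and 1737 PPM and then 2965, 3195 and 2288 PPM, a difference of 0.58 (adjusted p = 0.028). In each of these 3 genes the ages did not overlap. IDP2 and PCK1, the cytosolic isocitrate dehydrogenase and the gluconeogenic phosphoenolpyruvate carboxykinase, had differences of 0.87 and 0.63 that fell just short (adjusted p = 0.051 each). FBP1 and ADH2, with differences of 0.57 and 0.54, were also not past the threshold (adjusted p = 0.11 and 0.071).

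Many of these calls were lost when 1 library was left out. The glyoxylate list kept 3 of its 5 calls without 48 hr replicate 2, and 2 each without 48 hr replicate 3, 72 hr replicate 1 or 72 hr replicate 2, and the carnitine list kept 1 without 48 hr replicate 2 or 72 hr replicate 1 or 2. CRC1 and MDH2 kept their calls in every fit with 1 library left out. With eBayes without a trend 0 of these 8 transcripts passed (limma, adjusted p from 0.081 for CRC1 to 0.44 for CIT2), whereas with the trend 11 of the 13 and 4 of the 5 listed had an unadjusted p under 0.05. SFC1 was lost without 72 hr replicate 2 (adjusted p = 0.053), ICL1 without 48 hr replicate 3 or 72 hr replicate 1 (0.1 and 0.12), and YAT2 without 48 hr replicate 2 or 72 hr replicate 1 or 2 (0.092, 0.084 and 0.11). MLS1 was lost without 48 hr replicate 2 or 3 or 72 hr replicate 1 or 2 (adjusted p = 0.055, 0.16, 0.14 and 0.11), and CIT2 without the same libraries (0.15, 0.18, 0.17 and 0.22). CAT2 was lost without 48 hr replicate 1, 2 or 3 or 72 hr replicate 1 or 2 (0.066, 0.12, 0.16, 0.16 and 0.34). With size factors 3 of 13 and 2 of 5 remained called, MLS1, CIT2 and CAT2 being lost (adjusted p = 0.057, 0.11 and 0.093).

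**Figure D3:**
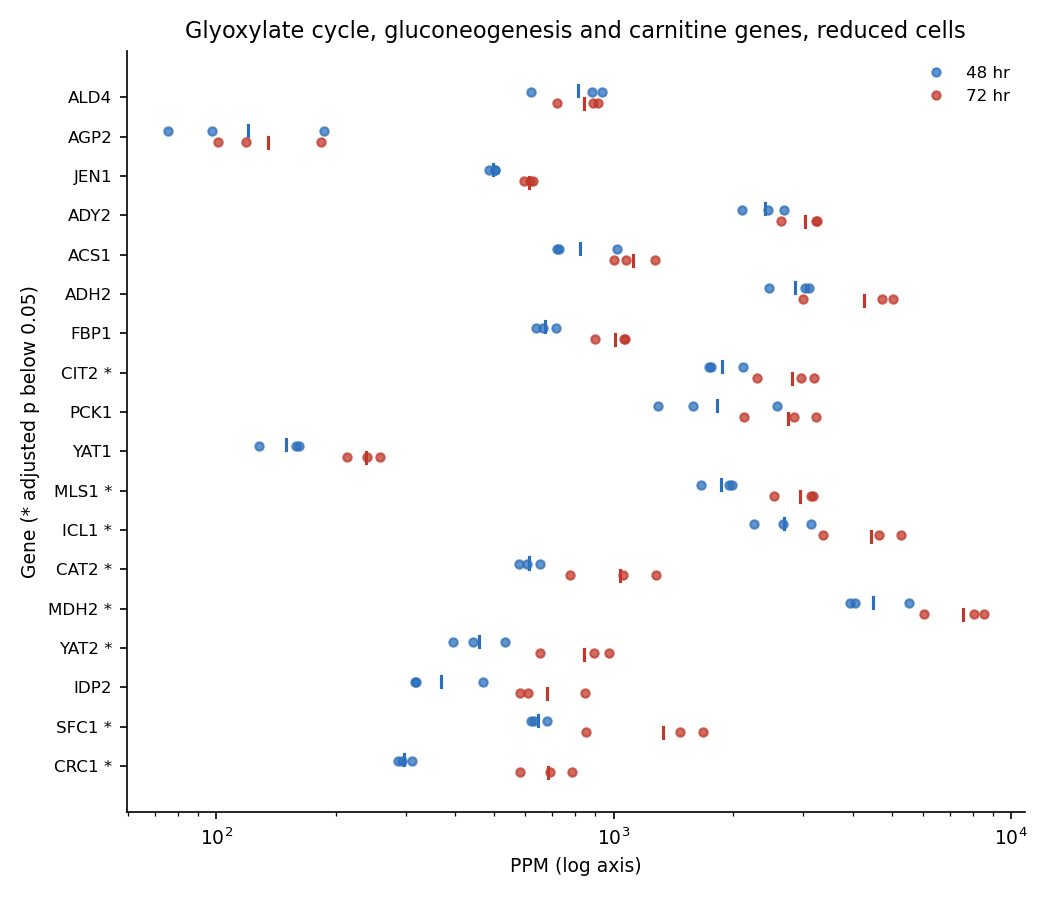
PPM on a log axis of the 18 listed transcripts of the glyoxylate cycle, gluconeogenesis and the carnitine shuttle in each reduced library at 48 hr (blue) and 72 hr (red), with a tick at each mean, ordered by log2 difference. An asterisk marks an adjusted p below 0.05, and CRC1, at the bottom, goes from 297 to 685 PPM on average.

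Respiratory chain transcripts moved the other way. Of 39 transcripts of the respiratory chain and ATP synthase 6 fell (15.4%, against 1.76% of all genes tested) and 0 rose, 4 differences were positive, and the median was -0.46. With eBayes without a trend only CYC7 of the 6 passed. With size factors 15 of 39 fell and the median was -0.55. CYC7, the isoform of cytochrome c found at low oxygen, had the largest fall of any transcript in the lists, from 261, 336 and 241 PPM to 94.3, 56.5 and 50.7 PPM (-1.93 ± 0.26, SE, n = 3; adjusted p = 2.2e-07). QCR10, a subunit of the cytochrome bc1 complex, fell from 315, 327 and 346 PPM to 159, 141 and 130 PPM (-1.15 ± 0.22, SE, n = 3; adjusted p = 2.9e-04). QCR7, of the same complex, fell from 1788, 1494 and 1700 PPM to 1043, 1180 and 885 PPM (-0.68 ± 0.15, SE, n = 3; adjusted p = 0.0032). The ages of these 3 transcripts did not overlap.

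NDI1, the internal NADH dehydrogenase, ATP17, an ATP synthase subunit, and COX13, a cytochrome c oxidase subunit, fell by 0.92, 0.67 and 0.62 (adjusted p = 0.021, 0.023 and 0.026). NDI1 was lost without 48 hr replicate 2 or 3 or 72 hr replicate 1 or 3 (0.18, 0.085, 0.1 and 0.17). ATP17 was lost without 48 hr replicate 2 or 3 or 72 hr replicate 1 or 2 (0.082, 0.2, 0.095 and 0.1), and COX13 without any of the 48 hr replicates or 72 hr replicate 1 or 3 (0.078, 0.15, 0.068, 0.11 and 0.083). The list kept 3 calls without 48 hr replicate 2 or without 48 hr replicate 3. In the TCA cycle KGD1 (-1.06) and SDH2 (-0.65) fell (limma, adjusted p = 0.025 and 0.038). They were 2 of 16, against 1.76% lower among all genes tested, and the median of the list was -0.03. The list had 0 calls without 48 hr replicate 2 or 3 or 72 hr replicate 1 or 3, and 1 without either other reduced library. HAP4, the activating subunit of the Hap complex that drives respiratory genes, fell from 411, 344 and 316 PPM to 179, 205 and 203 PPM (-0.83, adjusted p = 0.012), and was lost without 48 hr replicate 1 or 72 hr replicate 1 (0.098 and 0.084).

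Sugar uptake and entry transcripts fell in a few members. HXT6, a high-affinity hexose transporter, had 3007, 2660 and 3151 PPM and then 943, 947 and 992 PPM, a difference of -1.60 ± 0.14 (SE, n = 3; adjusted p = 1.4e-12). HXT7, whose sequence is nearly identical, had 1190, 1057 and 835 PPM and then 502, 516 and 535 PPM, a difference of -0.96 (adjusted p = 6.3e-05). Reads of these neighbours may have been divided between them, and their sum was 3717 to 4198 PPM at 48 hr and 1445 to 1527 PPM at 72 hr. HXK1, a hexokinase, fell from 1506, 1460 and 2060 PPM to 760, 721 and 935 PPM (-1.04 ± 0.15, SE, n = 3; adjusted p = 1.7e-06), and PDC5, a minor pyruvate decarboxylase, from 195, 193 and 301 PPM to 54.6, 99 and 90.2 PPM (-1.40 ± 0.25, SE, n = 3; adjusted p = 1.2e-04). SUC2, invertase, fell from 158, 134 and 113 PPM to 44.7, 63.6 and 84.5 PPM (-0.99, adjusted p = 0.021) and was lost without 48 hr replicate 1 or 2 or 72 hr replicate 1 or 2 (0.12, 0.07, 0.21 and 0.052). These were 2 of 9 hexose transporters and sensors, 2 of 21 glycolytic and fermentative transcripts and, with HAP4, 2 of 19 regulators of glucose repression and respiration, with medians of -0.07, 0.00 and 0.04. The share lower among all genes tested was 1.76%. Only HXT6 of these passed with eBayes without a trend. The others had limma's adjusted p of 0.14 (HXT7), 0.081 (HXK1), 0.065 (PDC5), 0.14 (SUC2) and 0.21 (HAP4) in that setting.

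Thiamine synthesis transcripts fell in 5 of 18 tested (27.8%, against 1.76% of all genes), with a median of -0.36. With eBayes without a trend 3 of them passed, THI11, THI12 and THI13. THI5, THI11, THI12 and THI13, nearly identical genes for the pyrimidine part of thiamine, had 307 to 556 PPM at 48 hr and 134 to 205 PPM at 72 hr, with differences of -1.34, -1.28, -1.51 and -1.41 (adjusted p = 1.9e-05, 8.8e-06, 3.0e-07 and 2.9e-06). Reads may have been shared among the copies, so they are nearer to 1 observation than 4, and their sum was 1340 to 1925 PPM and then 580 to 664 PPM. THI4, for the thiazole part, had 548, 386 and 609 PPM and then 412, 297 and 231 PPM, so that the ages overlapped (-0.71, adjusted p = 0.045). It was lost without 48 hr replicate 1 or 3, 72 hr replicate 2 or 3 (0.16, 0.32, 0.15 and 0.27) or oxidized 72 hr replicate 1, 2 or 3 (0.053, 0.053 and 0.061).

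Stationary-phase transcripts moved in opposite directions. Of 22 listed 3 fell and 2 rose, against 1.76% lower and 0.565% higher among all genes tested, with a median of 0.24, and with eBayes without a trend only RGI1 of the 5 passed. RGI1, a respiratory growth factor, fell from 1531, 1963 and 2339 PPM to 879, 756 and 783 PPM (-1.24 ± 0.15, SE, n = 3; adjusted p = 1.6e-08). The cell wall protein gene SPI1 fell from 2207, 2819 and 2865 PPM to 1137, 1258 and 1313 PPM (-1.08 ± 0.14, SE, n = 3; adjusted p = 1.1e-07), and YGP1, a secreted glycoprotein, from 1406, 1502 and 1339 PPM to 735, 742 and 918 PPM (-0.82 ± 0.15, SE, n = 3; adjusted p = 1.3e-04). DDR2, a stress-responsive gene, rose from 5587, 4925 and 5437 PPM to 7940, 8553 and 6469 PPM (0.52, adjusted p = 0.023), and OM14, of the outer mitochondrial membrane, from 2302, 1695 and 1805 PPM to 3267, 3259 and 2186 PPM (0.57, adjusted p = 0.038), the latter with overlap. DDR2 was lost without 48 hr replicate 2 or 3 or 72 hr replicate 1 or 2 (0.16, 0.085, 0.14 and 0.17), as was OM14 (0.24, 0.19, 0.28 and 0.25), which was also lost without oxidized 72 hr replicate 1 or 3 (0.051 and 0.053). With size factors neither passed (0.1 for DDR2 and 0.12 for OM14), and without 72 hr replicate 3 the list had 5 that rose.

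Metal and phosphate transcripts gave a few calls each, where 1.76% of all genes tested were lower and 0.565% higher. ZRT1, the high-affinity zinc transporter, fell from 1958, 2131 and 2136 PPM to 1028, 933 and 1555 PPM (-0.85 ± 0.15, SE, n = 3; adjusted p = 1.3e-04), 1 of 6 zinc regulon transcripts. The metallothionein genes CUP1-1 and CUP1-2, identical copies that were named after their values were seen, held 43669 to 48469 PPM in sum at 48 hr and 18984 to 25793 PPM at 72 hr, and both fell, CUP1-1 with a log2 difference of -1.02 (adjusted p = 7.1e-09 for CUP1-1 and 1.3e-08 for CUP1-2). In the iron uptake list 1 of 19 rose and 1 fell: the siderophore transporter SIT1 had 485, 613 and 466 PPM and then 983, 1060 and 704 PPM (0.79, adjusted p = 0.011), and the cell wall mannoprotein gene FIT2 had 813, 999 and 1128 PPM and then 507, 778 and 597 PPM (-0.64, adjusted p = 0.013). SIT1 was lost without 48 hr replicate 1 or 3 or 72 hr replicate 1 or 2 (0.065, 0.11, 0.1 and 0.14) and FIT2 without 48 hr replicate 2 or 3 or 72 hr replicate 1 (0.071, 0.17 and 0.2). In the phosphate regulon the transporter PHO84 (-0.99) and the regulator SPL2 (-0.87) fell, 2 of 14 (adjusted p = 0.013 and 0.028), with 0 of the 2 left without 48 hr replicate 2 or 3 or 72 hr replicate 1 and 1 left without 48 hr replicate 1 or 72 hr replicate 3.

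The remaining large changes belonged to few lists. RPL40B, which encodes ubiquitin fused to a ribosomal protein, had 41.5, 16.8 and 22.6 PPM and then 109, 134 and 141 PPM, which were 15 reads and 66 reads in sum (1.95 ± 0.46, SE, n = 3; adjusted p = 0.0063, and 0.058 without 48 hr replicate 2). Its coding sequence is close to that of RPL40A, and the pair summed to 1489 to 1720 PPM and then 1654 to 1905 PPM. RPL41B, a very short ribosomal protein gene with a near-identical copy, rose from 5795, 5563 and 5467 PPM to 9718, 9323 and 7455 PPM (0.65 ± 0.13, SE, n = 3; adjusted p = 6.7e-04). They were the 2 of 137 cytosolic ribosomal protein transcripts that changed, against 0.565% higher among all genes tested. The median of that list was 0.09, against 0.10 over all genes.

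MIC17, a protein of the mitochondrial intermembrane space, rose from 187, 134 and 165 PPM to 447, 580 and 310 PPM (1.37 ± 0.24, SE, n = 3; adjusted p = 9.8e-05), and SHH3, a homologue of a succinate dehydrogenase subunit, from 236, 193 and 165 PPM to 541, 530 and 378 PPM (1.24 ± 0.25, SE, n = 3; adjusted p = 6.7e-04). The ages did not overlap for either. HMG2 and ERG25 of ergosterol synthesis rose by 1.08 and 0.94 (2 of 24, adjusted p = 0.028 and 0.0086), and MET10, a sulfite reductase subunit, by 1.16 (1 of 22 sulfur transcripts, adjusted p = 0.045). The share higher among all genes tested was 0.565%. HMG2 was lost without any 1 of the 6 reduced libraries (0.067 to 0.15), ERG25 without 48 hr replicate 2 or 3 or 72 hr replicate 1 or 2 (0.08, 0.094, 0.081 and 0.11) and MET10 without any 1 of the 6 (0.081 to 0.21) or without oxidized 72 hr replicate 1 or 3 (0.057 and 0.059). BOP2, YOR238W, IZH1 and YRF1-5 rose by 1.66, 1.61, 0.99 and 1.04 (adjusted p = 0.02, 0.046, 0.042 and 0.041) and rested on low values, with 7 to 64 reads in sum at 48 hr. Each was lost without 72 hr replicate 1 (0.077, 0.21, 0.27 and 0.2) and without 48 hr replicate 3 (0.16, 0.12, 0.35 and 0.29), among others.

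Several of the largest falls were in short or overlapping genes. YIL100C-A went from 74.7, 117 and 135 PPM to 9.93, 14.1 and 5.63 PPM (-2.57 ± 0.47, SE, n = 3; adjusted p = 2.2e-04). YHR054W-A and YHR052W-A, whose names place them beside the CUP1 copies, fell by 1.54 and 1.46, and YBR072C-A, on the strand opposite HSP26, held 3.96% of the PPM of HSP26 at 48 hr and fell by 1.13 (adjusted p = 2.6e-05, 1.1e-05 and 2.1e-05). Whether the counting used strand is not given in the sources used here, so reads of such partners cannot be told apart. PRP46, a splicing factor, fell by 1.53, YBR201C-A by 1.56, VHS1, a protein kinase, by 1.55 and YIL169C by 1.65 (adjusted p = 2.6e-04, 0.0048, 0.0097 and 0.018). VHS1 was lost without 48 hr replicate 3 or 72 hr replicate 1 (0.12 and 0.24) and YIL169C without 48 hr replicate 1 or 3 or 72 hr replicate 2 (0.078, 0.096 and 0.25). URA10 of pyrimidine synthesis (-0.77) and MRPS17 of the mitochondrial ribosome (-0.86) also fell (limma, adjusted p = 0.011 and 0.038). They were the only members of their lists past the threshold, 1 of 22 (4.55%) and 1 of 66 (1.52%), against 1.76% lower among all genes tested. Each was lost without 48 hr replicate 2 or 3 or 72 hr replicate 1 (0.054, 0.11 and 0.063 for URA10, and 0.19, 0.1 and 0.52 for MRPS17), MRPS17 also without 48 hr replicate 1 (0.071) or oxidized 72 hr replicate 1 or 3 (0.053 each).

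**Figure D4:**
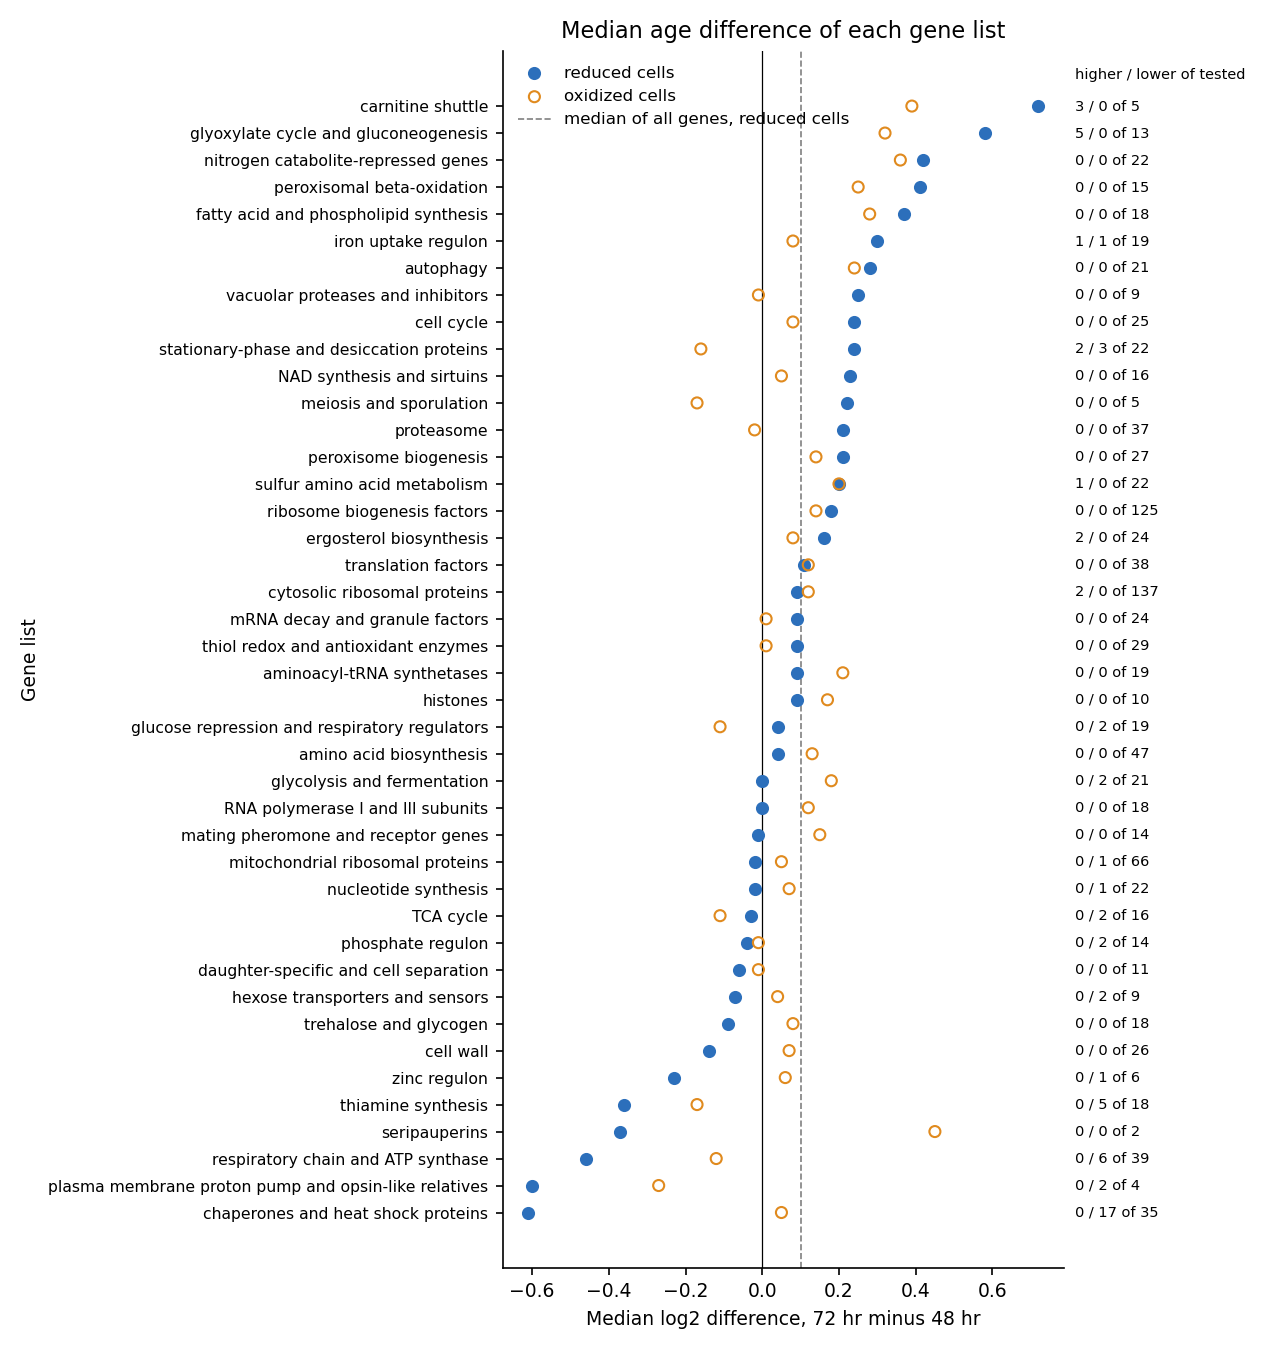
Median log2 difference between 72 and 48 hr of each of the 42 gene lists in reduced (filled) and oxidized (open) cells, with the number of reduced-cell transcripts higher and lower out of those tested at the right. The dashed line is the median of all genes in reduced cells, 0.10, and the chaperones lie at the bottom at -0.61 against 0.05 in oxidized cells.

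The same comparison was made in oxidized cells of the same ages. In oxidized cells 21 of 4776 transcripts changed (0.44%), 8 higher and 13 lower, and 12 of them were among the 111. Those called in both were CRC1, ICL1 and SFC1, which rose in both, 8 that fell in both (HXT6, HXT7, HXK1, HSP30, RGI1, SUC2, YNR034W-A and YFR052C-A, the last with nearly the values of HXK1 and so perhaps the same reads), and ZPR1, which fell in reduced cells and rose in oxidized ones. A missing call in oxidized cells does not show that a change was absent there. Of the 27 that rose in reduced cells 24 had a positive difference in oxidized cells, and of the 84 that fell 55 had a negative one. The median log2 differences of these sets in oxidized cells were 0.27 and -0.17, against 0.08 over all genes tested. The share of all genes above 0 in oxidized cells was not counted. The age difference itself differed between reduced and oxidized cells for 37 transcripts (0.775%; 0 with eBayes without a trend, and 430 at an unadjusted p under 0.05 with limma), 36 of them with a lower value in reduced cells. Of these 28 were among the 84 that fell and 0 among the 27 that rose, and 9 had not passed the threshold in reduced cells. The test of the difference used all 12 libraries, and the age differences it compares share no library, though reduced and oxidized libraries of an age may come from the same cultures.

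Among the chaperones the age difference differed for 9 of 35: HSP42 (-1.56), APJ1 (-1.68), SSE2 (-1.57), BTN2 (-1.53), FES1 (-1.24), SSA4 (-1.23), HSP82 (-0.90), HSP26 (-0.89) and CPR6 (-0.86), given as reduced minus oxidized. Of these, SSA4 no longer passed when reduced 48 hr replicate 3 was left out (adjusted p = 0.075), nor did CPR6 without any of 7 libraries, the reduced 48 hr replicates, reduced 72 hr replicate 1, oxidized 48 hr replicate 1 and oxidized 72 hr replicates 1 and 3 (0.052 to 0.18). In oxidized cells HSP42 had 1305, 1436 and 1676 PPM at 48 hr and 1814, 2099 and 1922 PPM at 72 hr, a difference of 0.40 that did not pass there (adjusted p = 0.27), against its fall in reduced cells (adjusted p of the difference = 4.9e-06). HSP26 had 32720, 29693 and 37452 PPM and then 27892, 26646 and 28531 PPM in oxidized cells, above every reduced library at each age. The median log2 difference of the chaperone list was 0.05 in oxidized cells, with 20 of 35 above 0 and 0 past the threshold (5 at an unadjusted p under 0.05 with limma). In the glyoxylate and carnitine lists 0 transcripts passed limma's test of the difference, also at an unadjusted p under 0.05, and their medians in oxidized cells were 0.32 and 0.39.

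The largest differences were those of YIL100C-A (-2.65), ZPR1 (-2.30), PRP46 (-2.25), YER163C (-1.92) and GID8 (-1.90), of which only YIL100C-A was lost with 1 library left out, without reduced 48 hr replicate 2 or 3, reduced 72 hr replicate 1 or 3, oxidized 48 hr replicate 2 or oxidized 72 hr replicate 1 or 3 (adjusted p = 0.07 to 0.18). ZPR1, a zinc finger protein that acts with the elongation factor eEF1A, had 183, 285 and 323 PPM and then 149, 70.7 and 135 PPM in reduced cells, and 111, 177 and 179 PPM and then 377, 353 and 348 PPM in oxidized cells (adjusted p of the difference = 1.9e-04). Its call in reduced cells alone was lost without 48 hr replicate 2 or 3 or 72 hr replicate 2 (0.065, 0.12 and 0.18). SIP18, a desiccation protein, was the only transcript with a positive difference (0.83, adjusted p = 0.027). It had 2933, 2643 and 2805 PPM and then 3223, 3047 and 1944 PPM in reduced cells and went from 4049, 3888 and 4243 PPM to 2107, 2041 and 2405 PPM in oxidized cells. The call on SIP18 was lost without any 1 library except reduced 48 hr replicate 1, reduced 72 hr replicate 3 and oxidized 72 hr replicate 3 (adjusted p = 0.054 to 0.2).

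**Figure D5:**
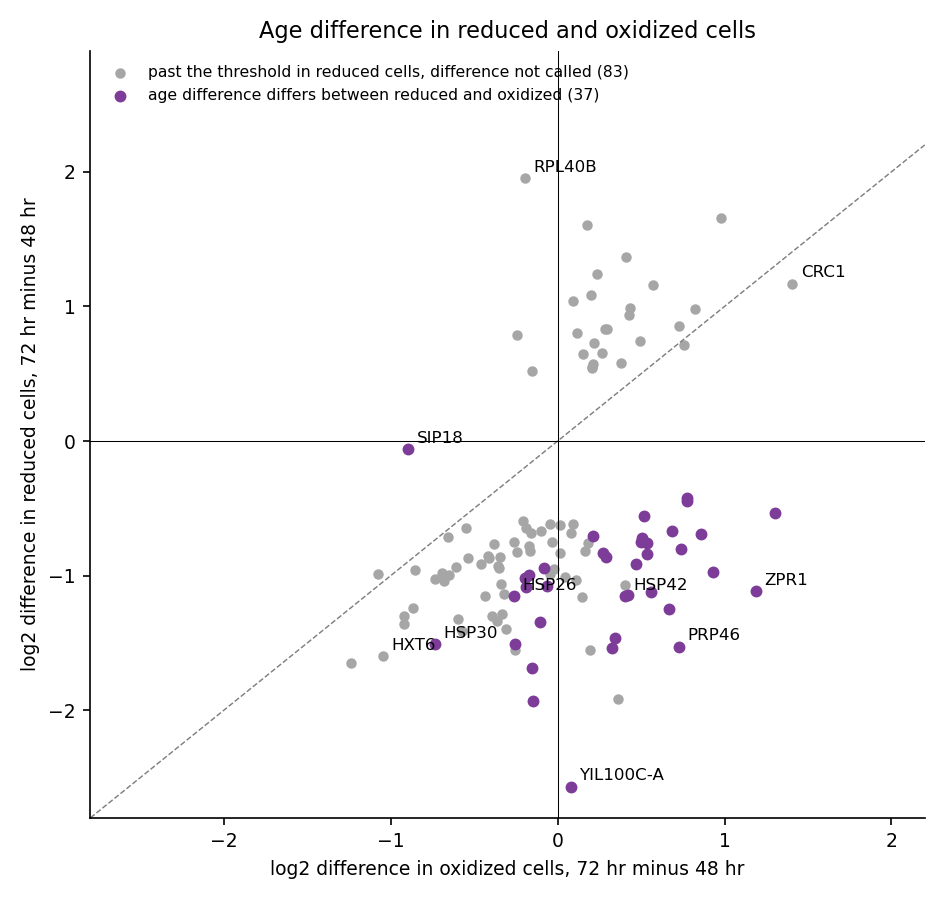
Log2 difference between 72 and 48 hr in oxidized cells (x axis) and in reduced cells (y axis) for the 120 transcripts past the threshold in reduced cells or in the test of the difference. Purple points are the 37 whose age difference differed, and all but SIP18 lie below the dashed line of equal change.

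Transcripts of growth and protein synthesis gave no calls apart from those above. Of 125 ribosome biogenesis transcripts, 38 translation factors, 19 aminoacyl-tRNA synthetases and 18 subunits of RNA polymerases I and III, 0 passed the threshold with limma, against 2.32% of all genes tested. At an unadjusted p under 0.05 they were 13, 2, 1 and 0, against 12% of all genes. Their median log2 differences were 0.18, 0.11, 0.09 and 0.00. Of 37 proteasome transcripts 30 had a positive difference, with a median of 0.21 and 0 calls (6 at an unadjusted p under 0.05 with limma). Of the transcripts discussed by name for this sorting of cells, PNC1, a nicotinamidase, had 2169, 1536 and 1880 PPM and then 1460, 1569 and 1623 PPM (-0.25, adjusted p = 0.54), and DHH1, a helicase of messenger RNA decay, 270, 302 and 301 PPM and then 233, 346 and 366 PPM (0.09, adjusted p = 0.93), the ages overlapping for both.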

How the data were processed

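The libraries were made from 3′ ends of poly(A) RNA tagged with molecular identifiers. The authors mapped them to sacCer3 with Bowtie2 at its defaults, collapsed duplicates, and counted the reads that lay within a window from 350 bp before to 200 bp after a transcription end, then divided by the library total. The deposited values are therefore PPM, a unit on the scale of RPM and other than raw counts. Not given in the sources used here are the version of Bowtie2, which gene annotation was used and whether counting was stranded. Of the table's lines 553 mix tabs and commas and were split, and 2 genes with broken lines were left out, YCR013C and PYC1. Whole reads were recovered from the PPM, which gave the totals in the report. Counting intervals were not computed, and recovered reads were used for description only.

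Log2(PPM + 10) was fitted in R 4.3.3 with limma 3.58.1 (4 group means over 12 libraries, eBayes with a trend, 45.1 prior degrees of freedom), with Benjamini-Hochberg adjustment over the 4776 genes that averaged 20 PPM or more and a threshold of 0.05. Adjusted p-values in the report are from this fit, and each log2 difference is 72 hr minus 48 hr unless stated. The authors' own test, that of Anders and Huber, needs raw counts. Tested on simulated libraries (4765 genes), the fit recovered 35.7% of 2-fold and 84.5% of 4-fold changes between the ages of reduced cells, with 3 false among 120 calls. The simulation gave every gene the same dispersion, 0.0187, so these rates need not hold for the real libraries. Python 3.11.15 (matplotlib 3.10.9, numpy 2.4.6, pandas 2.3.3) produced tables and figures. Promoters are 500 bases before each gene in RefSeq's R64 genome, and names matched for 4672 of 4776 genes.

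The members and gene lists were chosen with earlier results of these data known. Named genes are the 12 largest changes each way past the threshold without overlap, up to 6 members a direction past the threshold of each list or else its leading member by value, up to 5 genes a direction from the test of the difference, genes discussed by name for this study, and markers of mating type, daughters, division, strain and oxidized cells. P-values and SEs rest on the spread between libraries labelled biological replicates, but not on that of each gene alone. The eBayes step, with 45.1 prior degrees of freedom, draws each gene's spread toward a trend over all genes. Genes of similar level can therefore have the same SE though their own libraries spread differently. Alternatives were pseudocounts of 1 and 50 PPM, median-of-ratios size factors, no filter, a filter at a mean of 50 PPM, only the 6 reduced libraries, the replicate number as a block, eBayes without a trend, identical genes counted once, at least 2-fold, and each library left out.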

Additional observations from a re-analysis of the deposited data

Results flagged for a closer look

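The age difference of 37 transcripts differed between reduced and oxidized cells by limma's test of the difference with Benjamini-Hochberg adjustment, and 19 of them kept this call with each of the 12 libraries left out in turn. For the other 18 it was lost on leaving out 1 of 11 libraries for YDL180W, 10 for VPS24, 9 for SIP18, 8 each for HSP30, NDI1, SYG1 and YIL047C-A, 7 each for CPR6, HAP1, PIN3 and YIL100C-A, 5 each for LST8, NCA2 and SPT15 and 4 for THI12, and on leaving out 1 particular library for SSA4, BDH2 and YJR096W. Values are log2 differences, the age difference in reduced cells minus that in oxidized cells, and no explanation was tested. Among chaperones and small heat shock proteins they were -1.68 for APJ1, -1.57 for SSE2, -1.56 for HSP42, -1.53 for BTN2, -1.24 for FES1, -1.23 for SSA4, -0.90 for HSP82, -0.89 for HSP26 and -0.86 for CPR6. Among other stress and stationary-phase transcripts they were -1.15 for YJL144W, -1.01 for SPI1, -0.92 for HOR7, -0.78 for HSP30 and 0.83 for SIP18. The metallothionein copies CUP1-1 and CUP1-2 had -0.83 each, and their neighbours YHR054W-A and YHR052W-A had -1.86 and -1.80. In respiration and its regulation CYC7 had -1.79, NDI1 -1.38 and HAP1 -1.10, and in thiamine synthesis THI12 had -1.25. The others were YIL100C-A (-2.65), ZPR1 (-2.30), PRP46 (-2.25), YER163C (-1.92), GID8 (-1.90), YDL180W (-1.84), VPS24 (-1.55), NCA2 (-1.54), LST8 (-1.37), PIN3 (-1.35), SPT15 (-1.29), BDH2 (-1.26), SYG1 (-1.22), YIL047C-A (-1.20) and YJR096W (-1.07). SYG1 and YIL047C-A had nearly equal values in every reduced library and may hold the same reads.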

How the results depend on the processing

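All 111 transcripts kept their direction in every alternative, and 34 of the 69 named transcripts that changed kept their call in every alternative other than eBayes without a trend. That setting gave 18 transcripts, 2 higher and 16 lower, and 0 each in oxidized cells and in the test of the difference (459 and 402 at an unadjusted p under 0.05 with limma). The cause was not tested. With a change of at least 2-fold also required, 50 remained, 9 higher and 41 lower, and 6 in oxidized cells. The number higher, 27, was 42 with a pseudocount of 50 PPM, 41 with a mean of at least 50 PPM, 15 with size factors and 42 with only the 6 reduced libraries. A pseudocount of 1 PPM gave 12 in oxidized cells. With 1 library left out the count ranged from 61 to 127, the higher from 10 to 36, the lower from 50 to 91, those in oxidized cells from 9 to 22 and those that differed between the subpopulations from 23 to 46. Samples with the same replicate number did not deviate together (Pearson r of -0.003, -0.04 and -0.001 between the ages), and same-numbered reduced and oxidized samples of an age had r of -0.0272 to 0.0199. Counting error is large at this depth, so these values cannot decide whether samples with the same number came from 1 culture. With the replicate number as a block 109 transcripts changed, 29 higher and 80 lower. Depth was 119178 to 241084 reads, so that 8 of the 111 transcripts rested on a mean under 100 PPM at 48 hr.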

Other observations

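Lists in which no transcript passed the threshold are given here by their leading member in the direction of the median, with limma's Benjamini-Hochberg adjusted p. Lipid and nitrogen lists had medians above that of all genes: peroxisomal beta-oxidation 0.41 with 13 of 15 positive (PXA1, 1.16, adjusted p = 0.2), nitrogen catabolite-repressed genes 0.42 with 17 of 22 positive (DAL80, 1.33, adjusted p = 0.32), and fatty acid and phospholipid synthesis 0.37 with 14 of 18 positive (CHO1, 0.71, adjusted p = 0.13). Degradation lists were autophagy at 0.28 (ATG18, 1.31, adjusted p = 0.23), vacuolar proteases at 0.25 (CPS1, 0.65, adjusted p = 0.56) and the proteasome at 0.21 (PRE3, 0.65, adjusted p = 0.25). Peroxisome biogenesis stood at 0.21 (PEX25, 1.38, adjusted p = 0.21), NAD synthesis and sirtuins at 0.23 (NRK1, 0.88, adjusted p = 0.52), and the cell cycle at 0.24 (MCM2, 0.67, adjusted p = 0.69). In ribosome biogenesis NOG2 had 1.53 (adjusted p = 0.14), among translation factors GCD6 1.36 (adjusted p = 0.11), and WRS1 0.89 (adjusted p = 0.11) among aminoacyl-tRNA synthetases.

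Lists with a median below 0 were seripauperins at -0.37, with 2 tested (PAU17, -0.53, adjusted p = 0.79), trehalose and glycogen at -0.09 (GAC1, -0.79, adjusted p = 0.12), cell wall at -0.14 (PIR3, -0.48, adjusted p = 0.49) and daughter-specific genes at -0.06, where 2 of 11 were positive (DSE4, -1.42, adjusted p = 0.16). Mating pheromone and receptor genes had a median of -0.01 (STE3, -0.62, adjusted p = 0.71) and subunits of RNA polymerases I and III one of 0.00 (RPC11, -0.38, adjusted p = 0.85). Histones had a median of 0.09 (HHT1, 0.52, adjusted p = 0.16) and amino acid biosynthesis one of 0.04 (ILV1, 0.63, adjusted p = 0.53). Messenger RNA decay and granule factors stood at 0.09 (DCP2, 0.71, adjusted p = 0.33) and meiosis and sporulation at 0.22, with 5 tested (IME2, 1.01, adjusted p = 0.47).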
